A study of Mus musculus with 4 samples.

Results

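Most RNA-binding motif (Rbm) genes encode proteins with an RNA recognition motif, so the name marks a shared domain and not a shared pathway. Members were every row of the count table whose symbol begins with Rbm followed by a digit or the letter x, apart from Rbm14, and their level in lamin A/C knockdown cells was set against that in control cells. The rule gave 43 of the 24421 gene symbols. Among them were Rbm3os and Rbm46os, which are antisense RNAs, and Rbm23 was not analysed here. Of the 43, 32 passed the filter on low counts and were tested, 3 had counts but did not pass it, and 8 had no count in any library.

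The libraries came from B16F10, a mouse melanoma line of the C57BL/6 strain, grown in culture and transduced with lentivirus. The control group, shControl, has 2 libraries, and its vector is a control shRNA in the sample labels but an empty vector in the reagent list of the study. The knockdown group, shLmna, also has 2 libraries, from cells with an shRNA (short hairpin RNA) that targets Lmna, which encodes the A-type lamins of the nuclear envelope. All 4 were selected with puromycin at 2.5 µg/mL, and whether replicate libraries trace back to independent transductions is not stated. P-values therefore measure the spread between libraries, which may be technical, and what else sets the lines apart cannot be told apart from what the hairpin did. RNA was counted at the 3′ end of transcripts by bulk MARS-seq, in which the poly(A) tail is primed and each molecule is tagged.

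Library totals ran from 2494880 to 3808843 counts. Lmna, as a check of the labels, had 2826 and 2684 counts in the control libraries against 331 and 480 after knockdown, a log2 fold change of -2.61. The 7 melanocytic markers summed to between 19728 and 24690 CPM (counts scaled to the library total) in each library, although Tyr, the gene of tyrosinase, had between 1 and 7 counts. Within that sum Sox10 was lower (log2 fold change -0.89), and Pmel (0.41) and Mlana (0.51) were higher, with edgeR adjusted p of 0.00161, 0.0258 and 0.00510, and their part in the results on Rbm genes was not tested. Of 16 markers of leukocytes, endothelium, epithelium and fibroblasts, 9 were at 0 in all libraries, and the 4 lists summed to at most 0.401, 1.31, 0.820 and 7.09 CPM. Fewer cells of a type and less RNA per cell cannot be told apart in such bulk samples.

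Rbm proteins act at nearly every step in the life of an mRNA. Some sit in or near the spliceosome, the machine that removes introns, and steer the choice of splice sites. Others guide the methylation of adenosines, mark exon junctions after splicing, or hand unwanted nuclear transcripts to the exosome, which degrades them. A further set works in the nucleolus on ribosome precursors, and some members are made mainly in muscle or germ cells.

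In shLmna cells, 7 of the 32 tested members were lower and 0 were higher. The lower members were Rbm7, Rbm39, Rbm12b2, Rbm12, Rbm17, Rbmx and Rbm26, each with an edgeR quasi-likelihood adjusted p under 0.05. Over all 9150 tested genes the same test called 9.74% lower and 5.48% higher, so 21.9% of the tested members were lower against a background of 9.74%. Members were chosen with earlier results of these data known, so these shares do not test the family. The member share includes Rbm12b2, which passed the filter through the control libraries alone. The background holds such genes too, and how many was not counted. At an unadjusted p under 0.05 the higher members were Rbm15 and Rbm22, and DESeq2 also called 0 higher. Under the study's 3 limits, which add a log2 fold change of more than 1 in size and a mean normalized count over 5, Rbm7, Rbm39 and Rbm12b2 were called lower and 0 members higher. These limits called 5.88% of all tested genes lower and 1.76% higher. The median log2 fold change of the tested members was -0.02, beside -0.00107 for all tested genes, and 16 of the 32 lay below 0.

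**Figure D1:**
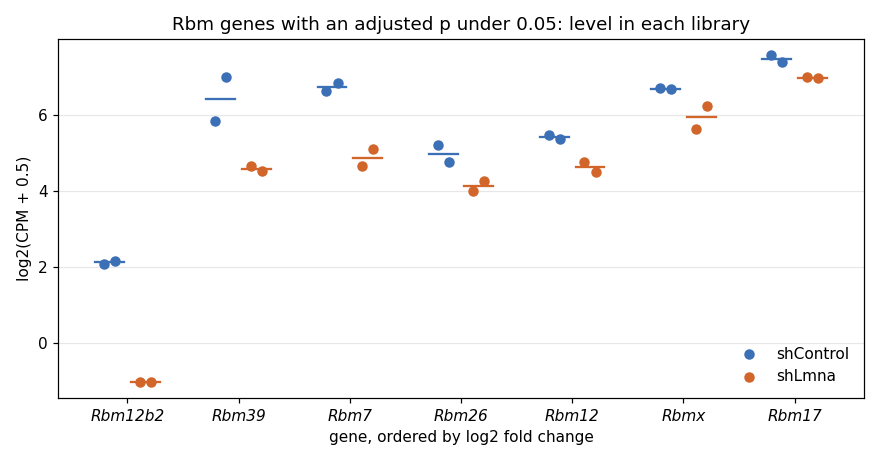
Level of the 7 lower Rbm genes in each library, as log2 of CPM plus 0.5, with shControl in blue, shLmna in orange and a bar at each group's mean on this scale. In every gene both shLmna points lie under both shControl points, with the widest gap between control libraries in Rbm39 and both shLmna points of Rbm12b2 at 0 CPM.

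Levels from here on are CPM scaled by TMM, a normalization between libraries. Since reads were taken from the 3′ end, these values were compared between groups for a gene and not between genes.

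The largest group of members belongs to the spliceosome or governs splice sites. Of its 15 listed genes, 14 were tested, 3 were lower and 0 higher, beside 9.74% and 5.48% of all tested genes. The median log2 fold change was -0.10. Rbm39, also known as CAPERα, resembles the factor U2AF that recognizes the 3′ splice site and also acts as a transcriptional coactivator. The gene lies on chromosome 2 (GRCm38, 156147239 to 156180238, minus strand), and its level was 56.7 and 127.7 CPM in shControl and 24.5 and 22.3 CPM in shLmna. Both shLmna libraries lay below both control libraries, but the control libraries were themselves far apart, with 183 and 477 raw counts. Rbm39 changed by a log2 fold change of -1.99 (SE 0.336 and adjusted p 0.00387 by edgeR), from 92.2 ± 50.2 to 23.4 ± 1.54 CPM (SD, n = 2). Leaving out shControl 2 reduced this to -1.28, and without shLmna 2 the adjusted p was 0.0804.

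The region around the start of Rbm39 is shown because it holds, at 2 places, a CGCG palindrome that 2 other members share. The sequence runs over chr2:156180189-156180488 on the minus strand (RefSeq, GRCm38.p6), from 250 bases before the annotated start to 50 after it. Capitals mark the palindrome core CTCGCGAG and the CCAAT box, here on the other strand as ATTGG.
Rbm39 promoter: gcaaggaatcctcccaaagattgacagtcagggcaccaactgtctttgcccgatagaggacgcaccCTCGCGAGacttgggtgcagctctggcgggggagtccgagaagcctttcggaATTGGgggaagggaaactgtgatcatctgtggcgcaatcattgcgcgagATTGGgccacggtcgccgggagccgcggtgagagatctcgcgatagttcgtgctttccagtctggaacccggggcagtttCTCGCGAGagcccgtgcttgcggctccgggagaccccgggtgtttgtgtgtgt

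Rbmx encodes hnRNP G, an X-linked splicing regulator, and Rbmxl1 is a retrocopy of it on another chromosome. Rbmx (chromosome X, 57383530 to 57393036, minus strand) stood at 102.8 and 102.0 CPM in shControl and at 49.0 and 74.7 CPM in shLmna. The control libraries nearly coincided, whereas the shLmna libraries were spread, and both lay lower. Its log2 fold change was -0.71 (SE 0.185 and adjusted p 0.0291 by edgeR). Without shLmna 1 this was -0.45, with an adjusted p of 0.216. Rbmxl1 had 96.9 and 102.8 CPM in shControl and 73.6 and 84.5 CPM in shLmna, a log2 fold change of -0.33 (95% interval -0.64 to -0.03, edgeR adjusted p 0.135). Whether the copies differ in their response was not tested, and their values are uncertain because they share sequence with each other and with the annotated genes Gm7324 and Gm7192. Of the 31-base stretches in the last 1000 transcript bases, 89.5% of those of Rbmxl1 and 5.98% of those of Rbmx occur in other genes.

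Rbm17, or SPF45, is a splicing factor that binds components of the early spliceosome. Its level was 188.6 and 166.8 CPM in shControl and 125.8 and 124.8 CPM in shLmna, with no overlap and the shLmna libraries almost equal. Rbm17 (chromosome 2, 11585437 to 11604153, minus strand) changed by a log2 fold change of -0.50 (SE 0.125 and adjusted p 0.0239 by edgeR), the smallest change among the 7 lower members. With either shLmna library left out it no longer passed, with adjusted p of 0.156 and 0.188.

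The other 11 tested members of the splicing group did not pass the adjusted test. Rbm5, Rbm6 and Rbm10 are related regulators of alternative splicing, and Rbm5 and Rbm6 lie next to each other on chromosome 9. Their log2 fold changes were -0.14, 0.06 and 0.03, with 95% intervals from -0.46 to 0.19, from -0.31 to 0.43 and from -0.31 to 0.38. Changes of more than 1 in size on the log2 scale thus lay outside these intervals. Of the 3′ stretches of Rbm10, 78.8% also occur in Gm12799 or Gm15455, and 39.7% of those of Rbm6 occur in Rbm6-ps1. Rbm22, a protein of the activated spliceosome, had 60.4 and 54.6 CPM in shControl and 75.1 and 75.5 CPM in shLmna. The groups did not overlap, and its log2 fold change was 0.39 (95% interval 0.07 to 0.71, edgeR adjusted p 0.0961). Rbm25, which works with the U1 particle at the 5′ splice site, had a log2 fold change of 0.29 and overlapping groups. The minor spliceosome proteins Rbm41 and Rbm48 had log2 fold changes of 0.60 and 0.00, with intervals from -0.43 to 1.63 and from -0.67 to 0.68. On its control libraries alone Rbm41 would not have passed the filter. Rbm42 had 980 and 1200 counts in the control libraries against 669 and 1089 after knockdown, and a log2 fold change of -0.15. Its counted end lies wholly within sequence shared with Gm21982, which overlaps it on the same strand. Rbmx2 (-0.34) and Rbm4b (-0.07) completed the group. Rbm4 had 0 counts in all libraries, and Gm21992 overlaps its 3′ end on the same strand.

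**Figure D2:**
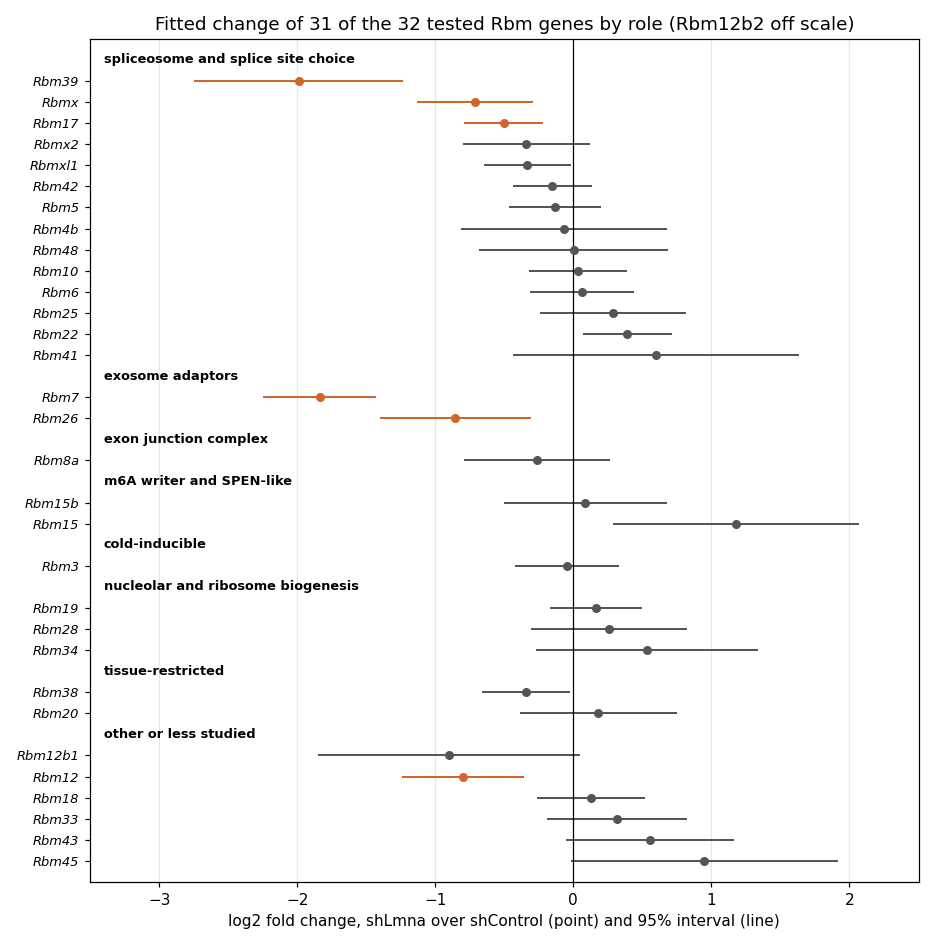
Log2 fold change of shLmna over shControl (points) with its 95% interval (lines) for 31 tested Rbm genes grouped by role, in orange where the edgeR adjusted p was under 0.05. The 6 orange points lie between -1.99 and -0.50, the other intervals cross 0 except those of Rbm15, Rbm22, Rbm38 and Rbmxl1, and Rbm12b2 is left out because its fitted value of -6.69 rests on counts of 0.

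Both tested adaptors of the nuclear exosome were lower, where 9.74% of all tested genes were. In the transcripts used here both had a 3′ GC content of at most 40%, a class in which 24.8% of all tested genes were lower. Rbm7 is the RNA-binding subunit of the NEXT complex, which feeds short-lived nuclear transcripts to the exosome, and Rbm26 and Rbm27 are zinc finger proteins linked to the exosome adaptor of polyadenylated RNA. Rbm7 (chromosome 9, 48488701 to 48495299, minus strand) had 319 and 425 counts in the control libraries against 62 and 125 after knockdown. In CPM these were 98.8 and 113.8 against 24.5 and 34.1, so the highest shLmna library was far below the lowest control library. The log2 fold change was -1.84 (SE 0.181 and adjusted p 0.000146 by edgeR), a fall of 72.0%. It was also lower with an adjusted p under 0.05 in all 13 alternative settings, the one member for which that held. Its size depended on a correction for GC content, which gave -0.69.

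The sequence around the start of Rbm7 is shown as that of the lower member with the smallest p. It covers chr9:48495281-48495580 on the minus strand (RefSeq, GRCm38.p6), and capitals mark the YY1 core AAGATGG, here on the other strand as CCATCTT, and the ETS core CCGGAA.
Rbm7 promoter: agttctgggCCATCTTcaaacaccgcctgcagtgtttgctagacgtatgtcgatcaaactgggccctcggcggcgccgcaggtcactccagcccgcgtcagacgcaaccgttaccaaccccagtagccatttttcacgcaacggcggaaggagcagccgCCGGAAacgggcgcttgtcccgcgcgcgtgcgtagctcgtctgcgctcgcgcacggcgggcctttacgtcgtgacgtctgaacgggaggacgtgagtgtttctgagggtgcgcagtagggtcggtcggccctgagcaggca

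Rbm26 (chromosome 14, 105106751 to 105177327, minus strand) had 36.2 and 26.5 CPM in shControl and 15.4 and 18.8 CPM in shLmna. The groups did not overlap, and the log2 fold change was -0.86 (SE 0.241 and adjusted p 0.0401 by edgeR). The adjusted p came to 0.104 without shControl 1, to 0.216 without shLmna 1 and to 0.137 without shLmna 2. Rbm27, its close relative, was under the filter with 1 and 19 counts in the control libraries against 1 and 0 after knockdown. Nearly all its counts thus came from shControl 2. With no filter on low counts it was lower (adjusted p 0.00702 by edgeR), as it was without shControl 1 (adjusted p 0.00119), where shControl 2 is the one control library. DESeq2 gave it an adjusted p of 0.353. Among the partners of these adaptors, 7 of 8 listed genes were tested, and Zcchc8 alone passed the adjusted test. Zcchc8, the scaffold that joins Rbm7 in the NEXT complex, was higher, with 3 and 4 counts in the control libraries against 10 and 14 after knockdown (log2 fold change 1.91, edgeR adjusted p 0.0495). It passed the filter through the knockdown libraries alone, and did not pass the test with DESeq2 or with any 1 library left out. The helicase Skiv2l2 had a log2 fold change of -0.28, the nuclease Exosc10 of 0.22 and the poly(A) binding protein Pabpn1 of 0.31, with edgeR adjusted p from 0.179 to 0.315. Zfc3h1 was under the filter with 2 and 4 counts in the control libraries against 0 and 1 after knockdown.

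Rbm12b2 and Rbm12b1 are neighbouring paralogs on chromosome 4 whose function is little studied. Rbm12b2 (12089439 to 12096243, plus strand) had 12 and 15 counts in the control libraries against 0 in each knockdown library. Against a floor of 3 counts per library it was at least 3.86-fold lower in shLmna (adjusted p 0.0069 by edgeR). It passed the filter through the control libraries alone, was not tested without shControl 2, and had an adjusted p of 0.0926 without shLmna 2. Rbm12b1 had 16 and 22 counts in the control libraries against 7 and 11 after knockdown, a log2 fold change of -0.90 (95% interval -1.84 to 0.04, edgeR adjusted p 0.185). Their counted ends share sequence, with 26.6% of the 31-base stretches of Rbm12b1 also found in Rbm12b2, so both values are uncertain. On its knockdown libraries alone Rbm12b1 would not have passed the filter.

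Rbm12 lies on chromosome 2 (156091958 to 156111978, minus strand), on the same strand and close to Rbm39. It had 43.7 and 40.4 CPM in shControl and 26.5 and 22.1 CPM in shLmna. The libraries of each group were close and the groups apart, and the log2 fold change was -0.80 (SE 0.194 and adjusted p 0.0220 by edgeR). Without shLmna 1 the adjusted p was 0.0728, and without shLmna 2 it was 0.189. Among the remaining less studied members, Rbm45 (0.95), Rbm43 (0.55), Rbm33 (0.32) and Rbm18 (0.13) had log2 fold changes above 0, and their edgeR adjusted p ran from 0.171 to 0.672. Rbm45 had 10 and 9 counts in the control libraries against 13 and 20 after knockdown, so its interval was wide, from -0.01 to 1.91. It too would not have passed the filter on its control libraries alone.

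Rbm15 and Rbm15b are related proteins that bring the enzyme complex for N6-methyladenosine to its RNA targets. Rbm15 had 2.79 and 3.48 CPM in shControl and 6.33 and 7.90 CPM in shLmna, the largest fitted increase among the tested members. Rbm15 would not have passed the filter on its control libraries alone. Its groups did not overlap, but with 9 to 29 counts per library the log2 fold change of 1.18 (95% interval 0.30 to 2.06) had an edgeR adjusted p of 0.0765. Rbm15b had a log2 fold change of 0.09 and overlapping groups. None of the 5 tested partners in methylation passed the adjusted test. Their log2 fold changes ran from -0.91 for 1110037F02Rik to 0.04 for Spen, with Mettl3 at -0.15 and Mettl14, both methyltransferase subunits, at 0.00. At an unadjusted p under 0.05 there was 1, 1110037F02Rik, and DESeq2 also called 0. Cbll1 was under the filter, with 2 and 40 counts in the control libraries against 1 and 0 after knockdown.

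Rbm8a encodes Y14, a core protein of the exon junction complex. It had 63 and 64 counts in the control libraries against 36 and 59 after knockdown, a log2 fold change of -0.26 (95% interval -0.79 to 0.26, edgeR adjusted p 0.493). Of its 5 tested partners, Magoh was higher. Magoh, which forms a dimer with Y14, went from 77.9 ± 5.98 to 121.1 ± 0.984 CPM (SD, n = 2), which is a log2 fold change of 0.64 (adjusted p 0.00995 by edgeR). The helicase Eif4a3 had a log2 fold change of -0.16 and Casc3 of -0.39, and neither passed. With either shLmna library left out, Magoh did not pass.

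Rbm3 is a cold-inducible protein that binds mRNAs and ribosomes. Its level was 41.8 and 47.1 CPM in shControl and 43.5 and 42.8 CPM in shLmna, with both shLmna values inside the control range. The log2 fold change of -0.05 had a 95% interval from -0.41 to 0.32. The GC correction turned it to 0.52 (adjusted p 0.0580 by edgeR), outside that interval, and with the replicate block added Rbm3 passed as higher (adjusted p 0.0475). Cirbp, the related cold-inducible gene, had a log2 fold change of -0.28 (adjusted p 0.442 by edgeR). Rbm3os, annotated on the opposite strand, had 1 to 3 counts per library and was not tested. Since the use of strand in counting is not stated, the counts of Rbm3os cannot be told apart from reads of Rbm3, which it overlaps, whereas the counted 3′ end of Rbm3 has no such overlap. The transcript ends used here for Rbm15b, Rbm38, Rbm48 and Rbm4b do overlap a gene on the other strand.

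None of the 3 nucleolar members, which take part in ribosome production, passed the adjusted test. Log2 fold changes were 0.16 for Rbm19, 0.26 for Rbm28 and 0.53 for Rbm34, with edgeR adjusted p from 0.353 to 0.527. At an unadjusted p under 0.05 there were 0, and DESeq2 also called 0. Rbm28 shows the spread between libraries, with 24.9 and 39.5 CPM in shLmna, of which the first lies within the control range of 24.6 to 30.0.

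Tissue-restricted members were mostly at 0 in these libraries. Of 9 in this group, 6 were at 0 in every library, namely the muscle gene Rbm24, the germ cell genes Rbm44, Rbm46 and Rbmxl2, Rbm47 and the Y-linked Rbm31y. Rbm46os, an antisense transcript grouped elsewhere, was also at 0. A count of 0 allows up to 3 counts in a library, and these limits cover counting error only. Of the 31-base stretches in the 3′ end of Rbm31y, 100% also occur in Gm21379, so its 0 is uncertain. Rbm11 had 0 and 6 counts in the control libraries against 0 and 3 after knockdown. The 2 tested members were Rbm20, a splicing factor known from heart muscle (log2 fold change 0.18), and Rbm38, a p53 target that regulates mRNA stability. The list placed Rbm38 here, although it had from 252 to 534 counts per library. Rbm38 had 116.8 and 143.0 CPM in shControl and 99.7 and 105.2 CPM in shLmna, groups that did not overlap, with a log2 fold change of -0.34 (adjusted p 0.133 by edgeR). Across the family the groups did not overlap for 20 of 32 tested members, or 62.5%, where 60.1% of all tested genes had groups apart, a share near the background.

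Partners of the splicing members at the 3′ splice site and in the minor spliceosome were also examined. Of 9 tested genes on a list headed 3′ splice site recognition, 2 were lower. That list also held Luc7l, Luc7l2 and Luc7l3, which do not themselves recognize that site. Sf1, which binds the branch point, had a log2 fold change of -0.50 (adjusted p 0.0370 by edgeR), and Luc7l3 one of -0.51 (adjusted p 0.0479 by edgeR). Neither passed with either shLmna library left out, and Sf1 did not pass without shControl 2. Luc7l3 passed in 6 of 13 alternative settings, and with the GC correction its log2 fold change was -0.08. The U2AF genes themselves, U2af1 and U2af2, had log2 fold changes of 0.07 and -0.29, with adjusted p of 0.750 and 0.389. In the minor spliceosome 1 of 8 tested genes was lower. Rnpc3 had 26 and 49 counts in the control libraries against 0 and 1 after knockdown, and its edgeR adjusted p was 0.00074. It passed the filter through the control libraries alone. The ratio of control to knockdown was 66.8 from the summed counts of 75 and 1. Its exact 95% interval, from 11.6 to 2672, covers counting error only. With the GC correction the log2 fold change of Rnpc3 was -3.20 (adjusted p 0.0301 by edgeR), against -5.75 without it. Over all lists, 3 of 37 tested partners were lower and 2 higher, shares of 8.11% and 5.41% beside the 9.74% and 5.48% of all tested genes.

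Base composition of the 3′ end, taken from 1 annotated transcript per gene, moved with these results. For the final 1000 bases of each transcript, the median GC content was 37.1% in the 7 lower members, 45.2% in the other 25 tested members and 46.9% in all tested genes. At a GC content of at most 40% lay 11 tested members, 5 of them lower, and above 40% lay 21, 2 of them lower. Among all tested genes in these classes, 24.8% and 5.94% were lower. The transcripts used for Rbm26 and Rbmx end short of the annotated gene end. Their GC content may thus not be that of the counted end. A correction that fits the counts of each library on GC content left Rbm7 (-0.69), Rbm39 (-1.37), Rbm12b2, Rbm17 (-0.51) and Rbmx (-0.71) lower with an edgeR adjusted p under 0.05. Of the 3 members within all 3 limits, Rbm39 alone stayed there. Rbm12b2 left them through the limit on mean count, which the correction also changes. Its fitted value was still -6.26 (adjusted p 0.0183 by edgeR), which rests on counts of 0 in shLmna. The correction took Rbm12 to -0.42 (adjusted p 0.214) and Rbm26 to -0.77 (adjusted p 0.0601). Rbm25, with a GC content of 34.1%, became higher with it, at 1.23 (adjusted p 0.00427). The correction also changed the split of calls over all genes from 538 lower and 161 higher to 417 and 409.

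**Figure D3:**
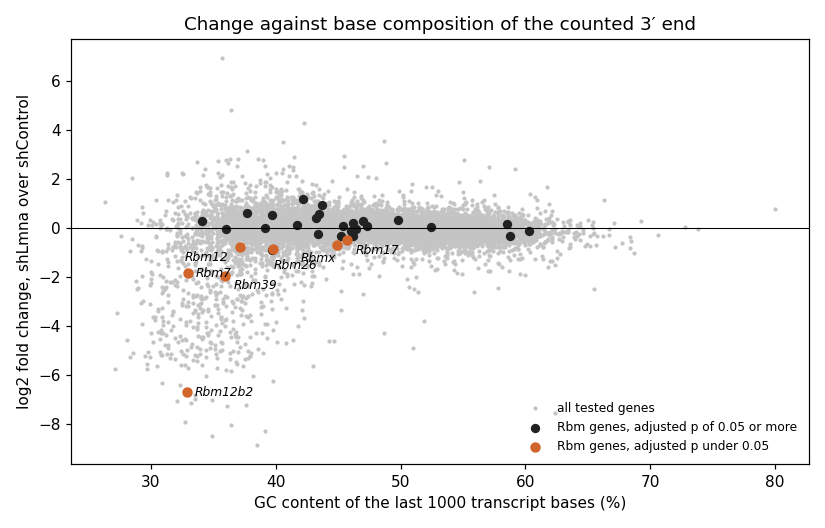
GC content of the last 1000 transcript bases (horizontal, %) against the log2 fold change of shLmna over shControl (vertical) for all tested genes in grey, Rbm genes over the limit of the test in black and the 7 lower Rbm genes in orange. Large negative values in grey lie mostly at low GC content, where Rbm7, Rbm39, Rbm12b2 and Rbm12 also lie, while Rbmx and Rbm17 sit near 45%.

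The tail of the transcript is where this method takes its reads, and the poly(A) signal sets that end. In the transcripts used here, AATAAA or its variant ATTAAA was found in the last 50 bases of 4 of the 7 lower members. These sites are shown as 30 bases each, with the signal in capitals, from GENCODE M21 (GRCm38). They lie on the minus strand at chr9:48488701-48488730, chr2:156147253-156147282, chr2:156091966-156091995 and chrX:57386364-57386393, in the order given.
Rbm7 signal: ttccttttaatatATTAAAtacacaaaaag
Rbm39 signal: aagaaccactcaAATAAAattctctgaaaa
Rbm12 signal: aacttgtcacaaAATAAAggctgatgcttt
Rbmx signal: tacaaaatactcAATAAAacgtttggccaa
Neither signal was found in that stretch for Rbm12b2, Rbm17 and Rbm26. Since the transcripts used for Rbm26 and Rbmx end short of the annotated gene end, their counted ends may differ.

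Promoters were searched for what lower members share. RefSeq start sites were matched for 35 of the 43 members and 26 of the 32 tested, and each motif was counted on both strands of the 300 bases around a start. CTCGCGAG, an 8-base palindrome, was present in 3 of the 26, Rbm39, Rbm26 and Rbm15, and in 1.04% of the 27025 genes with such a sequence. The 26 had passed the filter on low counts, whereas the 27025 were taken whether expressed or not. These shares, and those of the elements below, thus rest on unlike sets. The 30 bases around each match are given with the core in capitals, since the 2 genes with a match next to the start were both lower, at chr2:156180223-156180252, chr2:156180404-156180433, chr14:105177302-105177331 and chr3:107333467-107333496, all on the minus strand (GRCm38.p6).
Rbm39 site near the start: cggggcagtttCTCGCGAGagcccgtgctt
Rbm39 distal site: gaggacgcaccCTCGCGAGacttgggtgca
Rbm26 site: tcgcactcattCTCGCGAGatttaccggca
Rbm15 site: gctctttgtctCTCGCGAGatcggagagag
Relative to the annotated start, the core begins at -3 and -184 in Rbm39, at -6 in Rbm26 and at -196 in Rbm15. The genes that hold it did not share a direction, since Rbm39 and Rbm26 were lower and Rbm15 had a fitted change above 0.

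Other elements were counted in the same way, with 6 lower members among the 26. CCGGAA was found in 9 of 26 tested members, among them Rbm7 but no other lower member, and in 16.7% of all genes. AAGATGG was found in 3 of 26 (Rbm7, Rbm26 and Rbm15b) and in 7.28% of all genes. CCAAT was in 13 of 26, among them 4 of the 6 lower members, and in 41.1% of all genes. GGGCGG was in 13 of 26, among them 2 of the 6 lower members, and in 38.2%. TCACGTGA, a palindromic E-box, was in 0 of 26 and in 1.12% of all genes. TATAAA was found in 5 of 26, among them 1 of the 6 lower members, and in 15.7%.

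How far each fall depended on the fit is drawn for 6 of the lower members. Rbm39 and Rbm7 kept log2 fold changes below -1 in every edgeR or DESeq2 fit of the deposited or recovered counts apart from those with a GC correction, where Rbm7 was -0.69 and -0.68. Rbm12, Rbm17, Rbmx and Rbm26 were over 0.05 with DESeq2, with adjusted p of 0.148, 0.0613, 0.0601 and 0.216. With 1 shLmna library left out, 2 or 3 members stayed under 0.05. Rbm7 and Rbmx were those without shLmna 2, and Rbm7, Rbm39 and Rbm12b2 without shLmna 1.

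**Figure D4:**
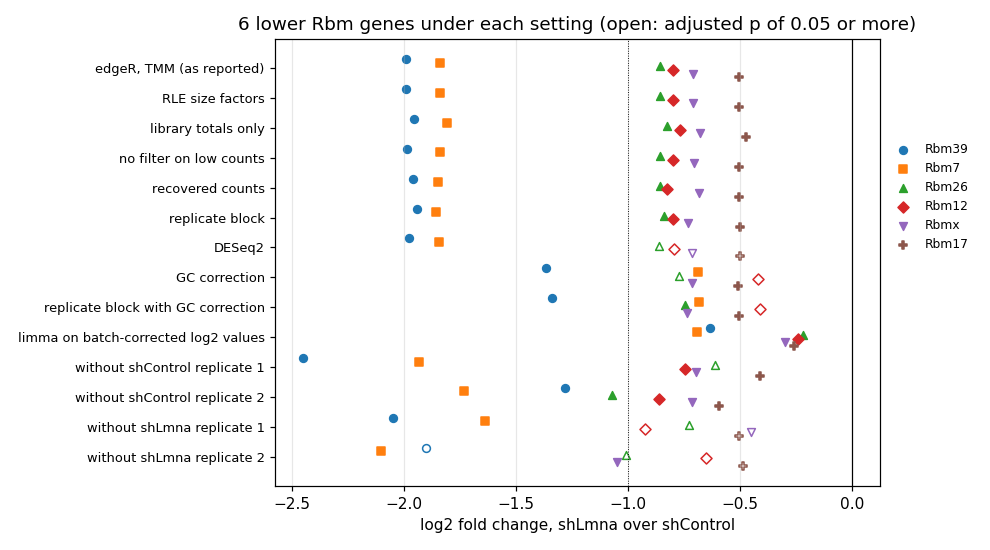
Log2 fold change of shLmna over shControl for 6 lower Rbm genes (symbols) under the reported fit and 13 alternative settings (rows), filled where the adjusted p was under 0.05, with a dotted line at -1. All points lie below 0, Rbm7 is filled in every row, and Rbm39 moves from -1.99 as reported to -0.63 in the batch-corrected log2 values.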

How the data were processed

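The main test used raw counts, which the authors deposited with 1 row per gene symbol. The study's methods name Cutadapt for trimming, STAR 2.4.2a for alignment to mm10 and HTSeq for counting over a window of the final 1000 bases of each RefSeq gene plus 100 bases beyond it, with molecular tag duplicates marked. Whether duplicates remain in these counts, and whether counting used strand, are not given in the sources used here. A second deposited table held a signal, which is a count over a DESeq2 size factor, beside the authors' p-values, which were not used. All its signal values (100%) were whole multiples of 1 step, within 0.01, and the matrix exceeded the recovered counts by 1.08 to 1.09 times. The third deposited table held log2 values after batch correction by ComBat, for batches that are not named.

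Counts were fitted with the edgeR 4.0.16 quasi-likelihood F test (R 4.3.3) with TMM, filterByExpr and group as the one term, two-sided, adjusted over 9150 genes by the Benjamini-Hochberg method. Replicates differed by more than sampling noise (chi-square per degree of freedom 6.96 in shControl and 3.91 in shLmna) and were kept as separate samples. Standard errors and intervals were derived from the F statistic. The edgeR fit, with and without the replicate block, and DESeq2 were tried on simulated counts, and the GC correction and limma were not. Alternatives were DESeq2 1.42.0, limma 3.58.1, other scalings, no filter, a replicate block, a loess correction on GC content (span 0.5) and leaving out each library. GC content and coordinates came from GENCODE M21 (GRCm38) and promoters from RefSeq. GC content, shared stretches and overlaps were taken at the end of 1 GENCODE transcript per gene. That end may differ from the RefSeq end over which reads were counted. Each Rbm gene was accounted for, and partners were named where they passed the test or completed a complex. Members and lists were chosen with earlier results of these data known.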

Additional observations from a re-analysis of the deposited data

How the results depend on the processing

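The count of 7 lower members became 3 with DESeq2 and 11 with limma on batch-corrected values, and ran from 2 to 8 with 1 library left out. The count of 0 higher members became 1 with the GC correction (Rbm25), 2 with the replicate block and GC correction together (Rbm25 and Rbm3) and 3 with limma (Rbm15, Rbm22 and Rbm45). The shares over all genes moved as well. Lower genes were 9.74% as reported, 4.33% with DESeq2 and 19.1% with limma. Higher genes were 5.48% as reported, 10.5% with the GC correction, 13.5% with the block added and 17.2% with limma. Members in the fit numbered 32 as reported, 35 with DESeq2 and 34 with limma. By all 3 limits the 3 lower members became 1 with the GC correction, with or without the block, and 0 with limma, and the 0 higher members became 1 with the GC correction, with or without the block. They ran from 2 to 3 lower and stayed at 0 higher with 1 library left out. The 5 partners that passed became 3 with DESeq2 and 12 with limma, and ran from 1 to 7 with 1 library left out.

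Over all genes the 538 lower calls became 28 with limma, and ran from 387 to 750 with 1 library left out. The 161 higher calls became 66 with DESeq2, 409 with the GC correction, 442 with the block and GC correction and 2 with limma, and ran from 60 to 232. The cause of these shifts was not tested. Where a library was left out the sample was also smaller, and the lone library is assumed to vary like the other group. The replicate block alone left 7 lower and 0 higher members, and changed no call of a member. Libraries with the same number did not deviate together (correlation 0.0134), so the number was not taken as a pairing.

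Direction turned for members near 0. Rbm3 was 0.52 with the GC correction, with or without the block. Rbm42 was 0.046 and 0.042 with the GC correction, without and with the block. Rbm48 was -0.020 with recovered counts and -0.0015 with limma, and Rbm4b was 0.017 and 0.00074. With 1 library left out, log2 fold changes ran from -0.12 to 0.21 for Rbm10, -0.23 to 0.40 for Rbm15b, -0.040 to 0.27 for Rbm18, -0.12 to 0.54 for Rbm20, -0.12 to 0.54 for Rbm28, -0.13 to 0.041 for Rbm3, -0.19 to 0.20 for Rbm48, -0.24 to 0.15 for Rbm4b and -0.083 to 0.22 for Rbm6. Depth limits members with under about 30 counts, such as Rbm15, Rbm45 and Rbm12b1, whose intervals are wide.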
